A study of Mus musculus with 24 samples.

Results

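The complement genes C3, C1qa, C1qb, C1qc, C4b, Cfb, Cfp, C3ar1 and C5ar1 were followed across day 7 bone marrow stromal cultures of Sh3bp2 knock-in and wild type mice. They were taken by symbol, as 9 of the 54232 gene identifiers in the count tables. Of the 9, 8 had counts and 1, Cfb, had a count of 0 in all 24 libraries. The knock-in libraries are titled CBM and carry the genotype label Sh3bp2KI/KI, a change on both copies of the gene for SH3BP2, an adaptor protein of immune receptor signalling that is mutated in cherubism, an inflammatory disease of the jaw in children. The controls are labelled wild type. Mice of both genotypes were female C57BL/6 animals aged 6 to 8 weeks, and their marrow was grown in MEM-alpha with serum for 7 days before sorting on CD45, the leukocyte surface protein, and Sca1. The 4 groups were knock-in hematopoietic (CD45+Sca1+), wild type hematopoietic, knock-in mesenchymal (CD45-Sca1+) and wild type mesenchymal cells, with 6 libraries in each. The labels do not say whether the libraries of a group came from separate mice or cultures, so p-values measure the spread between these libraries. The counts hold no base calls, so the Sh3bp2 allele was not checked here.

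Complement is a set of plasma and tissue proteins that tag microbes and debris and activate one another by cleavage. C1q, built from the products of C1qa, C1qb and C1qc, starts the classical pathway, C4 carries it forward, factor B and properdin run the alternative pathway, and all routes meet at C3, whose fragments coat targets or, as C3a, signal through the receptor C3AR1. The fragment C5a, released later in the cascade, signals through C5AR1. The liver makes most circulating complement, while macrophages are a main source of C1q in tissues.

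Libraries held between 9875390 and 15826711 counts. Levels are given in CPM, the count of a gene relative to its library's total, scaled by trimmed mean of M-values (TMM) factors over all 24 libraries, and differences as log2 fold changes from the edgeR quasi-likelihood test, called where the Benjamini-Hochberg adjusted p over all genes tested was under 0.05. Ptprc, the gene for CD45, ranged from 645 to 894 CPM in hematopoietic libraries and from 0.779 to 6.01 CPM in mesenchymal ones, while Ly6a, which encodes Sca1, averaged between 9.99 and 11.9 CPM in every group. Sh3bp2 itself ranged from 186 to 283 CPM in knock-in and from 158 to 235 CPM in wild type hematopoietic libraries, and from 6.34 to 9.04 CPM in knock-in and 6.37 to 8.71 CPM in wild type mesenchymal ones. Of 12 macrophage markers, 10 averaged at least 10 CPM in knock-in and 11 in wild type hematopoietic cells. T and NK cell markers summed to at most 1.1 CPM there. The erythroid and megakaryocyte list summed on average to 66.1 CPM in knock-in and 101 CPM in wild type hematopoietic cells. Its hemoglobin genes Hba-a1 and Hbb-bs were at 0 in every group. Whether reads of these genes were lost in counting was not tested. From stromal markers, mesenchymal RNA was estimated at 10.2 ± 4.88% of knock-in and 10.99 ± 5.46% of wild type hematopoietic libraries. Hematopoietic RNA was estimated from leukocyte markers at 0.630 ± 0.363% of knock-in and 0.405 ± 0.117% of wild type mesenchymal libraries (SD, n = 6 each).

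Upstream sequence is shown for the genes on which the genotype results turn. C3 was higher in knock-in cells of both populations, C1qb was the C1q gene whose genotypes did not overlap, and C3ar1 is the receptor that was called. The windows come from the RefSeq promoter table on build GRCm38.p6. Those of C3 and C1qb end at the base before the RefSeq start, and that of C3ar1 ends a few bases further upstream, at the edge of its GENCODE gene body. The RefSeq and GENCODE starts of C1qb and C3ar1 do not coincide, and distances are counted from the RefSeq start. The windows are written 5′ to 3′ on the strand of the gene, which is the minus strand for all of them. Capitals mark letter patterns of the kinds bound by C/EBP (TTNNGNAA), NF-kB (GGG and CC with any 5 bases between), AP-1 (TGANTCA) and ETS factors such as PU.1 (GAGGAA), searched on both strands.
C3 chr17:57228137-57228386: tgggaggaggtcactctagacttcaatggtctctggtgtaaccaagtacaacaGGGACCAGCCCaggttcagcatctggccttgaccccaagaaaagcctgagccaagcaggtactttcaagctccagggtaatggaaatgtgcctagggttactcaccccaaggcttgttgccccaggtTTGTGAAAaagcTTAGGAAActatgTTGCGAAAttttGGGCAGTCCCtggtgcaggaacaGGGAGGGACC
C1qb chr4:136886201-136886450: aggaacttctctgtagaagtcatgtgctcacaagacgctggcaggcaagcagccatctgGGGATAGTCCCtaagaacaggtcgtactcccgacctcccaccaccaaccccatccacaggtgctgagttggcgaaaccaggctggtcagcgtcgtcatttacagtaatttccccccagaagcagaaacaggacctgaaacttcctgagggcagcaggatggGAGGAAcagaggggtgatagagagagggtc
C3ar1 chr6:122856162-122856407: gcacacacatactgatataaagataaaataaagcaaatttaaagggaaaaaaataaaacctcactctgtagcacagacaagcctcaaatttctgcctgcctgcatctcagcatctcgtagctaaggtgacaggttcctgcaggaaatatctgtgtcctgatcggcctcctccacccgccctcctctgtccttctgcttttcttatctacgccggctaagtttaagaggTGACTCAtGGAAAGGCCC

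The C3 window held 3 matches to TTNNGNAA, which began 70, 58 and 45 bases before the RefSeq start, and 4 to the NF-kB pattern, of which an overlapping pair shares the first capitals. Across 32851 promoters of 250 bases, 36.8% held TTNNGNAA at least once and 2.61% held it 3 or more times, while 45.8% held the NF-kB pattern and 10.7% held that 3 or more times. The C1qb window held GAGGAA 30 bases before the start, a pattern found in 23.3% of promoters, and an overlapping pair of NF-kB patterns. In the C3ar1 window, TGANTCA began 22 bases before the start and the NF-kB pattern 14 bases before it, on the opposite strand; TGANTCA was found in 6.75% of promoters. These matches describe letters and are not sites of binding.

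In both genotypes, 7 of the 8 members tested were called higher in hematopoietic than in mesenchymal cells. For each of the 7 the 2 populations did not overlap, but how often this held over all genes was not counted. The exception was C4b. The background was high, since of the 15389 genes tested 73% were called between the populations in knock-in cells, 39.1% higher and 33.9% lower in hematopoietic cells, and 73.5% in wild type, 38% higher and 35.4% lower. The median log2 difference over the 8 members was 7.84 in knock-in and 7.94 in wild type cells, against 0.07 in knock-in and 0.03 in wild type over all genes tested. In bulk samples such as these, fewer cells of a type and less RNA per cell cannot be told apart.

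**Figure D1:**
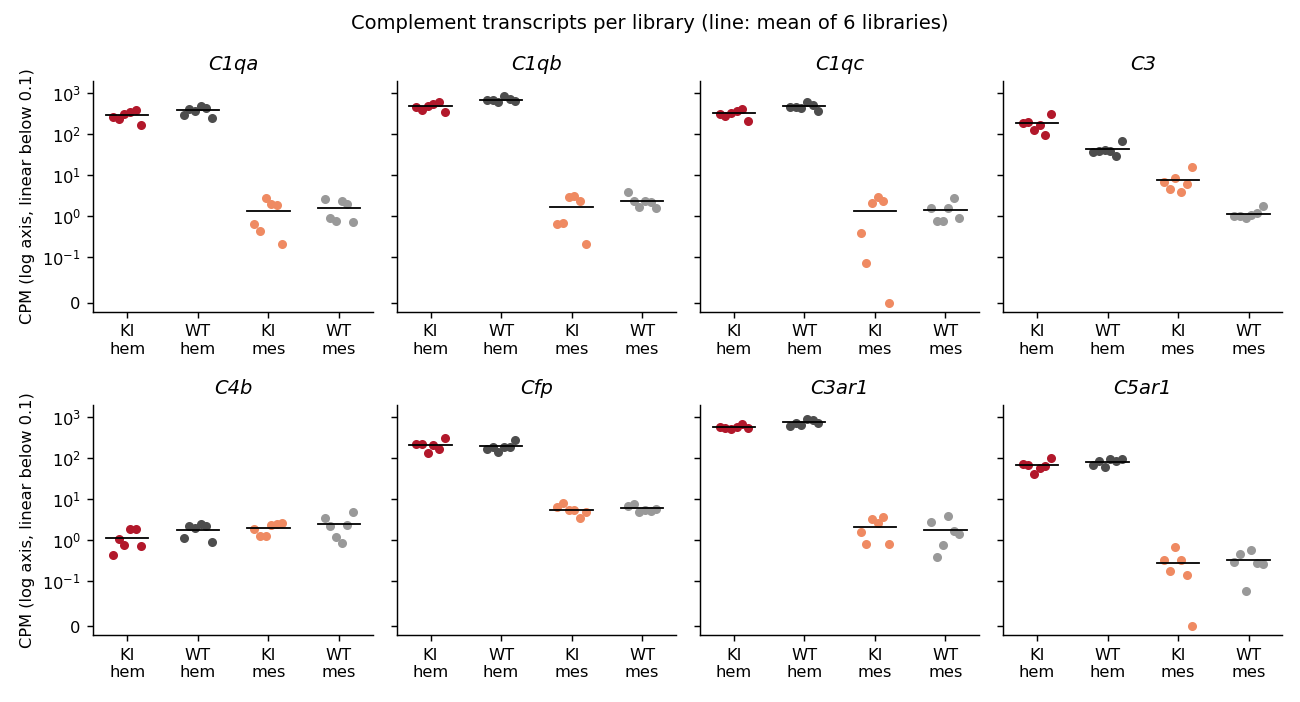
CPM of the 8 complement genes with counts in each library, on a log axis that is linear below 0.1, with the mean of the 6 libraries as a line; KI is knock-in, WT wild type, hem hematopoietic and mes mesenchymal. All but C4b sit higher in hematopoietic cells, and C3 falls into 4 separate levels by genotype and population.

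C3ar1 showed the widest gap of the members in wild type and C1qb in knock-in cells. For the C1q genes and both receptors, most mesenchymal libraries were at or below the level that the estimated hematopoietic RNA would bring, as given below. The size and order of their gaps therefore need not describe the mesenchymal cells. C3ar1, the receptor for C3a, averaged 566 ± 68.9 CPM in knock-in hematopoietic and 2.10 ± 1.24 CPM in knock-in mesenchymal cells, and 739 ± 116 CPM in wild type hematopoietic and 1.78 ± 1.26 CPM in wild type mesenchymal libraries (SD, n = 6 each). The log2 difference, hematopoietic over mesenchymal, was 8.06 ± 0.35 (SE) in knock-in and 8.71 ± 0.36 in wild type cells (edgeR, adjusted p = 1.84e-15 and 7.31e-16). C5ar1, the receptor for C5a, was lower in level, with 66.8 ± 20.6 CPM in knock-in hematopoietic and 0.268 ± 0.227 CPM in knock-in mesenchymal cells, and log2 differences of 7.94 in knock-in and 7.96 in wild type cells. In knock-in mesenchymal cells C5ar1 had between 0 and 8 counts per library.

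The C1q genes lie side by side on chromosome 4 of GRCm38, all on the minus strand, with C1qb at 136880129 to 136886187, C1qc at 136889804 to 136893065 and C1qa at 136895917 to 136898803. Their log2 differences between populations ranged from 7.77 for C1qa to 8.16 for C1qb in knock-in cells and from 7.92 for C1qa to 8.42 for C1qc in wild type cells. Per kilobase of exon, the C1qb level in hematopoietic cells was 443 CPM in knock-in and 650 CPM in wild type, that of C1qa 280 and 368 CPM, and that of C1qc 167 and 248 CPM. On the same per-kilobase scale C3ar1 stood at 131 CPM in knock-in and 172 CPM in wild type, Cfp at 120 and 110 CPM, C3 at 35.7 and 8.35 CPM, and C5ar1 at 25.97 and 31.5 CPM. C1qb was thus the most abundant complement transcript of the 9 per length in hematopoietic cells of both genotypes.

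Cfp encodes properdin, which stabilises the C3-cleaving enzyme of the alternative pathway, and lies on chromosome X at 20925454 to 20931555. It averaged 208 ± 58.4 CPM in knock-in hematopoietic and 5.52 ± 1.54 CPM in knock-in mesenchymal cells, a log2 difference of 5.23 ± 0.22 (edgeR, adjusted p = 8.17e-16). In wild type the means were 192 ± 45.5 CPM in hematopoietic and 5.93 ± 1.09 CPM in mesenchymal cells, a log2 difference of 5.02 ± 0.22 (adjusted p = 1.28e-15). C4b, one of the mouse genes for C4, was low everywhere: its library values ran from 0.427 to 1.86 CPM in knock-in hematopoietic, 0.902 to 2.39 in wild type hematopoietic, 1.21 to 2.62 in knock-in mesenchymal and 0.840 to 4.75 in wild type mesenchymal cells. The populations overlapped in both genotypes, and the log2 difference, hematopoietic over mesenchymal, was -0.82 in knock-in (edgeR, adjusted p = 0.0562) and -0.42 in wild type (adjusted p = 0.299). The near-identical gene C4a could have taken or shared reads of C4b. With upper quartile factors, with DESeq2 and with the 12 knock-in libraries alone, C4b was called lower in knock-in hematopoietic cells, at log2 differences of -0.98, -0.88 and -0.84.

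Cfb encodes factor B, which supplies the enzyme part of the alternative pathway convertase. Its count of 0 in every library allows up to 0.304 CPM in the shallowest and 0.190 CPM in the deepest library by counting error alone. However, 2246 of its 2825 exonic bases, or 79.5%, also belong on the same strand to the annotated readthrough gene Gm20547, itself at 0, and how reads falling in both genes were counted is not given in the sources used here. Cfb could therefore not be assessed. Itgam, the alpha chain of complement receptor CR3, was also at 0 in all libraries and shares 68.7% of its exonic bases with Gm49368, and C2, with 42.8% shared with Gm20547, had 205 counts in all.

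The low mesenchymal levels were set beside the level that the estimated hematopoietic RNA in those libraries would bring. For C1qa, C1qb, C1qc, C3ar1 and C5ar1 the measured mesenchymal level was at or below it in most libraries. C1qb, for instance, averaged 1.66 CPM against 3.04 CPM from the share in knock-in mesenchymal cells, with 0 of 6 libraries above, and 2.33 against 2.86 CPM in wild type, with 1 of 6 above. C3, Cfp and C4b exceeded it in all 6 libraries of both genotypes. For C3 the measured mean was 7.70 CPM against 1.16 CPM from the share in knock-in cells, and 1.16 against 0.174 CPM in wild type cells. For Cfp it was 5.52 against 1.31 CPM in knock-in and 5.93 against 0.775 CPM in wild type cells. In hematopoietic libraries, mesenchymal RNA brought at most 1.47 CPM of any member.

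**Figure D2:**
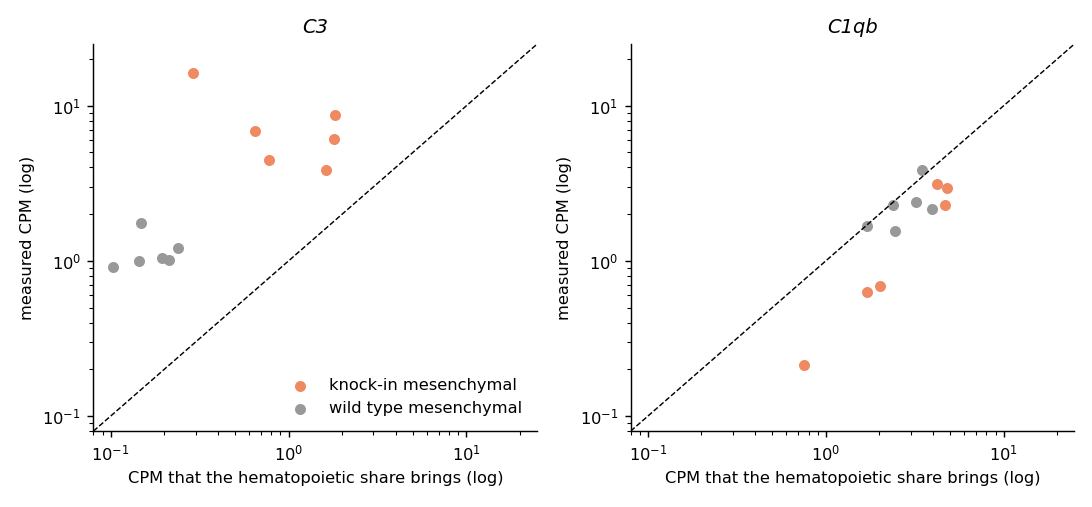
Measured CPM of C3 and C1qb in each mesenchymal library against the CPM that the estimated hematopoietic RNA would bring, both on log axes, with equality dashed. All 12 libraries lie above the line for C3, while 1 of 12 lies above it for C1qb.

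Between genotypes, the hematopoietic members moved in both directions: C3 rose in knock-in cells, C1qb, C1qc and C3ar1 fell, and C1qa, C4b, Cfp and C5ar1 did not pass the test. Thus 4 of the 8 members tested were called, 1 higher and 3 lower, where 15.9% of the 14030 genes tested were called, 9.01% higher and 6.89% lower. The median log2 difference, knock-in over wild type, was -0.39 over the 8 members and -0.0048 over all genes tested.

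C3 lies on chromosome 17 at 57203970 to 57228136. It had 192, 201, 130, 164, 96.0 and 321 CPM in knock-in hematopoietic replicates 1 to 6, against 37.6, 39.1, 41.8, 39.1, 30.0 and 70.1 CPM in wild type hematopoietic replicates 1 to 6. The lowest knock-in library was above the highest wild type library, and in both genotypes replicate 6 was the highest and replicate 5 the lowest. C3 was 4.27-fold higher in knock-in hematopoietic cells, a log2 difference of 2.09 ± 0.28 (SE, edgeR, adjusted p = 5.05e-04).

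C3 also rose in mesenchymal cells, from far fewer reads. It had 6.85, 4.50, 8.73, 3.87, 6.07 and 16.2 CPM in knock-in mesenchymal replicates 1 to 6, against 1.02, 0.996, 0.920, 1.05, 1.22 and 1.76 CPM in wild type mesenchymal replicates 1 to 6, from 52 to 229 counts in knock-in and 12 to 27 counts in wild type libraries. The genotypes did not overlap, and the highest value in both came from replicate 6. The log2 difference was 2.74 ± 0.34 (SE, edgeR, adjusted p = 4.64e-04), a fold of 6.68. With the estimated hematopoietic RNA subtracted, the log2 difference was 2.74 (edgeR, adjusted p = 0.00259). That estimate rests on leukocyte markers common to many cell types. Whether RNA of a cell type that it does not represent was carried over was not tested.

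Ordered from high to low, the C3 levels ran knock-in hematopoietic, wild type hematopoietic, knock-in mesenchymal, wild type mesenchymal, and no neighbours in this order overlapped. The genotype difference in hematopoietic minus that in mesenchymal cells was -0.65 ± 0.48 (SE, edgeR, adjusted p = 0.519), with an interval of 2 SE from -1.60 to 0.31, so that a difference between populations was neither shown nor shown to be absent. Within the 2 sets into which a prefix of the deposited file names divides the libraries, the log2 difference of C3 in hematopoietic cells was 2.14 in the first set and 2.06 in the second, and in mesenchymal cells 2.74 and 2.73. With the second set alone the adjusted p was 0.108 in hematopoietic and 0.106 in mesenchymal cells, from 3 libraries in each group.

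**Figure D3:**
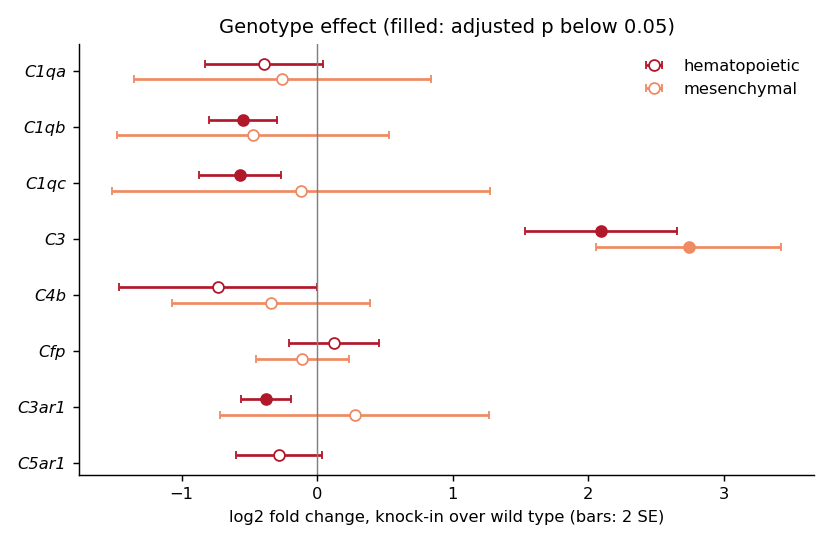
Log2 fold change, knock-in over wild type, with bars of 2 SE, for each complement gene tested in hematopoietic and mesenchymal cells; filled points have an adjusted p under 0.05, and C5ar1 was not tested in mesenchymal cells. C3 stands at 2.09 and 2.74, while C1qb, C1qc and C3ar1 lie below 0 in hematopoietic cells.

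The C1q genes were lower in knock-in hematopoietic cells, with C1qb and C1qc past the test and C1qa not. C1qb had 471, 401, 496, 556, 611 and 359 CPM in knock-in replicates 1 to 6, against 702, 692, 631, 844, 725 and 651 CPM in wild type replicates 1 to 6. The highest knock-in library was below the lowest wild type library. The log2 difference of C1qb was -0.55 ± 0.13 (SE, edgeR, adjusted p = 0.0095), a level in knock-in of 0.682 times that in wild type.

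C1qc had 311, 281, 340, 361, 423 and 216 CPM in knock-in replicates 1 to 6, against 462, 471, 436, 601, 521 and 381 CPM in wild type replicates 1 to 6. Knock-in replicate 5 lay above wild type replicate 6, so the groups overlapped. The log2 difference was -0.57 ± 0.15 (SE, edgeR, adjusted p = 0.0223), and without wild type replicate 4, the highest library, it was -0.49 with an adjusted p of 0.0639.

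C1qa ranged from 168 to 403 CPM with a median of 291 in knock-in and from 243 to 501 CPM with a median of 401 in wild type cells. The genotypes overlapped widely, and the log2 difference of -0.39 ± 0.22 did not pass the test (edgeR, adjusted p = 0.265), with an interval of 2 SE from -0.83 to 0.04. With the replicate number as a block in place of the file-name set, C1qa was called lower in knock-in (-0.41, edgeR, adjusted p = 0.00757). The labels do not say whether the numbers pair the libraries. Replicate 6 was the lowest library of both genotypes for C1qa, and of C1qc as well. The summed level of all C1q transcripts was 1095 ± 247 CPM in knock-in and 1569 ± 233 CPM in wild type hematopoietic cells (SD, n = 6 each).

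**Figure D4:**
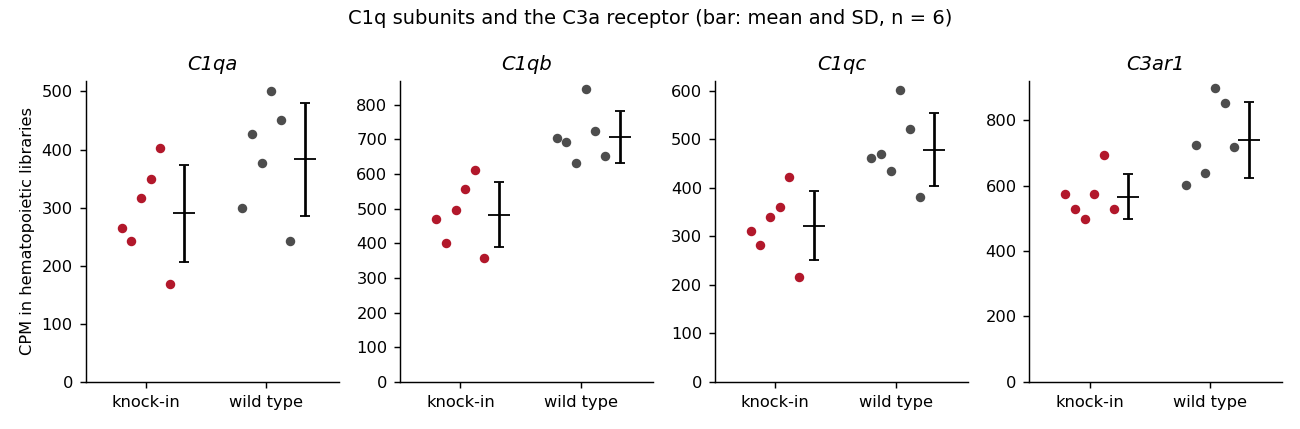
CPM of the C1q genes and of C3ar1 in each hematopoietic library on linear axes from 0, with the mean and SD of 6 libraries beside the points. The genotypes separate for C1qb, with 359 to 611 CPM in knock-in and 631 to 844 CPM in wild type cells, and overlap for C1qa, C1qc and C3ar1.

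Since both genes of a ratio are read from the same library, the ratios of the C1q transcripts do not depend on its depth. The log2 ratio of C1qc to C1qb averaged -0.59 ± 0.08 in knock-in and -0.57 ± 0.11 in wild type hematopoietic cells (SD, n = 6 each), a difference of -0.018 (two-sided exact permutation test, p = 0.734, adjusted over 3 ratios 0.734). The log2 ratio of C1qa to C1qb averaged -0.76 ± 0.18 in knock-in and -0.92 ± 0.32 in wild type (exact permutation p = 0.273, adjusted 0.409). That of C1qa to C1qc averaged -0.17 ± 0.12 in knock-in and -0.35 ± 0.22 in wild type (exact permutation p = 0.139, adjusted 0.409). The smallest p this design allows is 0.00217, and none of the ratios passed the threshold. The permutations took account of neither the file-name set nor the replicate number.

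C3ar1 lies on chromosome 6 at 122847138 to 122856161. It had 575, 528, 497, 574, 692 and 528 CPM in knock-in hematopoietic replicates 1 to 6, against 603, 724, 639, 899, 851 and 717 CPM in wild type replicates 1 to 6. Only knock-in replicate 5 reached into the wild type range, above wild type replicates 1 and 3. The log2 difference was -0.38 ± 0.09 (SE, edgeR, adjusted p = 0.0132), so that in knock-in hematopoietic cells C3 and the receptor for its fragment were called in opposite directions. In the first and second sets of libraries alone the log2 difference of C3ar1 was -0.29 (adjusted p = 0.219) and -0.45 (0.207), that of C1qb -0.56 (0.0522) and -0.53 (0.286), and that of C1qc -0.54 (0.0423) and -0.58 (0.354).

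C5ar1 ranged from 39.9 to 102 CPM with a median of 65.6 in knock-in and from 61.0 to 96.2 CPM with a median of 83.4 in wild type hematopoietic cells. The knock-in range enclosed that of wild type, and the log2 difference was -0.28 ± 0.16 (edgeR, adjusted p = 0.270). Cfp ranged from 134 to 307 CPM with a median of 211.9 in knock-in and from 143 to 278 CPM with a median of 185 in wild type, a log2 difference of 0.13 ± 0.17 (adjusted p = 0.680) whose interval of 2 SE ran from -0.21 to 0.46. C4b, with 5 to 27 counts in knock-in and 11 to 36 counts in wild type libraries, differed by -0.73 ± 0.36 on the log2 scale (adjusted p = 0.210).

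When all 24 libraries shared 1 estimate of spread, the log2 differences of C1qb, C1qc and C3ar1 were -0.56, -0.58 and -0.39, but none was called (edgeR, adjusted p = 0.138, 0.219 and 0.328), while C3 was (2.08, adjusted p = 1.70e-05). Markers of the cell types in the sort also moved with genotype, and their part in these results was not tested. Of 12 macrophage markers 6 were called lower and 1 higher in knock-in hematopoietic cells, with a median log2 difference of -0.49. The mannose receptor Mrc1 (-1.47), Fcgr1 (-1.26), Ccr2 (-1.62) and Adgre1 (-0.54) were among the lower ones, and the higher one was lysozyme, Lyz2 (0.66). The summed level of the 12 was 16390 to 24890 CPM in knock-in and 11610 to 20310 CPM in wild type. Most of that sum was Lyz2, which averaged 15140 CPM in knock-in and 9644 CPM in wild type. The sum therefore mainly follows Lyz2 and not the markers called lower. Of 9 osteoclast markers 8 were called higher, with summed levels of 2259 to 5738 CPM in knock-in and 294 to 2114 CPM in wild type, whereas neutrophil markers (7 tested) had no call, summed to 21.2 to 86.2 CPM in knock-in and 33.5 to 119 CPM in wild type, and had Ly6g at 0 in knock-in. Of 10 leukocyte markers 4 were called lower, Fcer1g (-0.65), Laptm5 (-0.35), Cd53 (-0.32) and Coro1a (-0.30), and 2 higher, Rac2 (0.50) and Itgb2, with summed levels of 3675 to 4350 CPM in knock-in and 3708 to 4487 CPM in wild type. The calls in this list, in both directions and with Itgb2 at 0.56, were of a size near those of C1qb, C1qc and C3ar1. Also called lower were 1 of 6 B cell markers, Cd79a (-2.20), and 1 of 2 erythroid and megakaryocyte markers, Pf4 (-0.65). So were 2 of 4 osteoblast markers, Alpl (-1.58) and Sp7 (-1.39). Alpl averaged 23.35 and 75.5 CPM in knock-in and wild type hematopoietic cells, against 236.6 and 622 CPM in mesenchymal ones. Sp7 averaged 5.2 and 14.2 CPM, against 39.5 and 102.5 CPM. Their calls were made with the estimated mesenchymal RNA left in. Summed levels in knock-in and wild type were 30.9 to 86.9 and 28.9 to 216.5 CPM for the B cell list. They were 31.6 to 85.2 and 75.1 to 115 CPM for the erythroid and megakaryocyte list, and 516 to 1193 and 294 to 1323 CPM for the osteoblast list. Most of the B cell sum was Ebf1, averaging 44.0 and 78.5 CPM, and most of the osteoblast sum was Spp1, averaging 754 and 638 CPM. Bglap was at 0 here and held only 1 count in all in each mesenchymal group, so its 0 does not tell the populations apart. No stromal, adipocyte or endothelial marker tested was called (10, 4 and 4 tested).

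In mesenchymal cells C3 was the member called, 1 of 7 tested, where 7.27% of the 13867 genes tested were called, 3.44% higher and 3.83% lower. None of the 7 was called lower by edgeR or by DESeq2, and none was lower at an unadjusted p under 0.05. The median log2 difference was -0.12 over the 7 members and 0.0011 over all genes tested. Cfp, with 3.51 to 8.05 CPM in knock-in and 4.91 to 7.66 CPM in wild type mesenchymal cells, differed by -0.11 ± 0.17 on the log2 scale (edgeR, adjusted p = 0.761), with an interval of 2 SE from -0.45 to 0.23. The differences of C1qa, C1qb, C1qc and C3ar1 had standard errors of 0.50 to 0.70 on the log2 scale, so that falls of the size called for C1qb, C1qc and C3ar1 in hematopoietic cells would lie within 2 SE of 0. C5ar1 had too few counts to be tested. Among marker lists in these cells, 5 of 5 adipocyte markers and 4 of 4 osteoblast markers tested were called lower, 3 of 5 osteoclast markers higher, and 0 of 12 stromal and 0 of 7 leukocyte markers were called. Their part in the C3 result was not tested.

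The genotype difference was not shown to depend on the population for any member. Of 8 tested, 0 were called by edgeR or by DESeq2, and 0 had an unadjusted p under 0.05, where 7.28% of the 15389 genes tested were called, 4.36% higher and 2.92% lower. C3ar1, the next after C3 in size, gave -0.64 ± 0.44 (SE, edgeR, adjusted p = 0.476), and C5ar1 had an SE of 1.14. For C1qa, C1qb, C1qc, C3ar1 and C5ar1 most mesenchymal libraries were at or below the level that the estimated hematopoietic RNA would bring. For these genes the test therefore cannot decide whether mesenchymal cells differ from hematopoietic ones in their genotype difference.

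Other genes of the system were read from a list of 45, of which 19 had enough counts to be tested in hematopoietic and 16 in mesenchymal cells. In hematopoietic cells 3 were called higher in knock-in, C1s1, Cd59a and Itgb2, and 1 lower, Cd93, where 9.01% of all genes tested were called higher and 6.89% lower. The median log2 difference of the 19 was 0.09. None of the 8 genes of the alternative pathway and of the terminal components, such as C6, C9 and Hc, the gene for C5, had enough counts to be tested in either population. In the whole list 5 genes were at 0 in all libraries, Cfd, Cfi, Mbl2, C8b and Itgam.

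C1s1 encodes a serine protease of the C1 complex. In hematopoietic cells it ranged from 1.19 to 2.93 CPM in knock-in, with a median of 2.52. The wild type range was 0.583 to 1.28 CPM, with a median of 1.08. The groups overlapped in their margins, and the log2 difference was 1.14 ± 0.23 (SE, edgeR, adjusted p = 0.00503). C1s1 was a mesenchymal transcript, with 10.8 ± 1.61 CPM in knock-in and 9.21 ± 2.62 CPM in wild type mesenchymal libraries (SD, n = 6 each), and once the estimated mesenchymal RNA was subtracted it had too few counts left to be tested in hematopoietic cells. Cd59a, an inhibitor of the membrane attack complex, averaged 13.4 ± 5.16 CPM in knock-in and 7.15 ± 1.80 CPM in wild type hematopoietic cells, a log2 difference of 0.91 ± 0.26 (edgeR, adjusted p = 0.0342) that lost its call without any 1 of 8 libraries, with adjusted p up to 0.0822.

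Itgb2 encodes the beta chain shared by the complement receptors CR3 and CR4. It ranged from 441 to 701 CPM with a median of 513 in knock-in and from 319 to 405 CPM with a median of 358 in wild type hematopoietic cells. The genotypes did not overlap, and the log2 difference was 0.56 ± 0.10 (SE, edgeR, adjusted p = 0.00256). Cd93, a membrane protein once described as a C1q receptor, ranged from 330 to 453 CPM with a median of 354 in knock-in and from 534 to 710 CPM with a median of 635 in wild type hematopoietic cells. It too did not overlap, and fell by 0.72 on the log2 scale (SE 0.09, edgeR, adjusted p = 1.82e-04). In mesenchymal cells Cd93 averaged 25.6 ± 10.3 CPM in knock-in and 17.2 ± 8.73 CPM in wild type, a log2 difference of 0.64 (adjusted p = 0.222). The genotype difference of Cd93 in hematopoietic minus mesenchymal cells was -1.32 ± 0.38 (edgeR, adjusted p = 0.0321), a call lost without any 1 of 11 libraries, with adjusted p up to 0.0675.

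**Figure D5:**
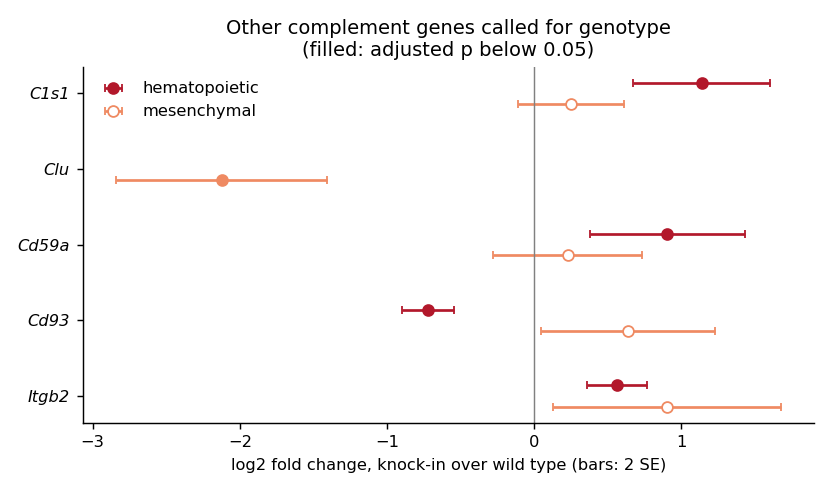
Log2 fold change, knock-in over wild type, with bars of 2 SE, for the other complement genes called in either population; filled points have an adjusted p under 0.05, and Clu was not tested in hematopoietic cells. C1s1, Cd59a and Itgb2 lie above 0 and Cd93 below it in hematopoietic cells, and Clu lies below 0 in mesenchymal cells.

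In mesenchymal cells 1 of the 16 other genes tested, Clu, was called, and it was lower in knock-in, where 3.83% of all genes tested were called lower. Clu encodes clusterin, an inhibitor of the terminal complex. It ranged from 0.495 to 1.62 CPM with a median of 0.840 in knock-in and from 1.69 to 7.74 CPM with a median of 3.67 in wild type mesenchymal cells. The groups did not overlap, and the log2 difference was -2.12 ± 0.36 (SE, edgeR, adjusted p = 0.00324). The genotype difference of Clu in hematopoietic minus mesenchymal cells was 2.97 ± 0.77 (adjusted p = 0.0181), where hematopoietic libraries held 4 to 12 counts in knock-in and 0 to 11 in wild type.

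Between populations, 9 of 22 other genes were called higher in hematopoietic cells in each genotype, and 7 in knock-in and 9 in wild type were called lower. These shares are near those of all genes tested, of which 39.1% in knock-in and 38% in wild type were called higher, and 33.9% and 35.4% lower. Itgb2 and Itgax, the alpha chain of CR4, had log2 differences of 7.15 and 7.21 in knock-in and 7.51 and 6.11 in wild type cells. On the mesenchymal side, Masp1, a protease of the lectin pathway, averaged 3.84 ± 1.70 CPM in knock-in hematopoietic and 50.1 ± 11.9 CPM in knock-in mesenchymal cells, and Csmd1, a membrane regulator, 18.4 ± 8.25 and 344 ± 123 CPM (SD, n = 6 each). Their log2 differences in knock-in cells were -3.73 and -4.23 (edgeR, adjusted p = 1.35e-12 and 1.52e-12).

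For each member averaging at least 10 CPM in hematopoietic cells, the gene that varied most alike was sought among 9036 genes. The measure was Pearson's r of log2(CPM + 1) over the 12 hematopoietic libraries, which does not compare the levels themselves. Both genotypes enter these values, so they contain the genotype difference, and they are descriptions with no test. C1qb and C1qc were among the nearest genes of each other, with r = 0.977. The nearest gene to C1qb was Tlr7, the endosomal receptor for single-stranded RNA (r = 0.979), that to C1qa was Lgmn, the lysosomal protease legumain (r = 0.987), and C1qa and C1qb gave r = 0.820. The nearest to C3 was Fgr, a SRC-family kinase of myeloid cells (r = 0.984), to C3ar1 Tmem106a (r = 0.955), to C5ar1 Pum2 (r = 0.962) and to Cfp Larp4b (r = 0.937). No member averaged 10 CPM in mesenchymal cells.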

How the data were processed

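The authors deposited 1 whole-number read count per gene and library. The RNA was depleted of ribosomal RNA and made into stranded SMARTer libraries read from both ends, per the labels' protocols. The submitters' processing notes name HTSeq 0.9.1, DESeq2 1.20.0, FastQC 0.11.7 and MultiQC, and the build GRCm38 (mm10). They name no aligner and no strand setting, so values of overlapping genes are uncertain. Of 54232 identifiers, 54165 matched GENCODE M21, used for symbols, coordinates and exon lengths, and 6 of the 9 members had a RefSeq promoter entry. Replicate pairs differed by 7.23 to 65.0 chi-square per degree of freedom, so none was merged.

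In R 4.3.3, genes passing filterByExpr (minimum count 10, minimum total 15) were scaled by TMM and tested with edgeR 4.0.16's robust quasi-likelihood test, adjusted by Benjamini-Hochberg over all genes tested at 0.05, with the file-name set as a covariate. No label says what the prefix means. Genotype fits used the 12 libraries of a population, and population and interaction fits all 24. Standard errors were derived from the F statistic, and intervals are 2 SE. The tests were also run on simulated counts with known changes. Those counts held no effect of file-name set, replicate number or carried-over RNA, so they cannot check how the calls depend on these. Ratios used a pseudocount of 0.5 and exact permutations (scipy 1.17.1). Carried-over RNA was estimated per library by the median, over 9 to 11 markers, of the marker's level divided by its mean in the population it marks, within a genotype. DESeq2 1.42.0 was an alternative, as were upper quartile factors, no filter, no set term, a replicate block, each set alone, the other choice of libraries, subtraction of the other population's RNA (in mesenchymal cells added after seeing the data) and leaving out each library.

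The members, lists and tests were chosen with earlier results of these data known. Text beyond the members names up to 4 called genes per comparison by adjusted p; interaction values of genes called elsewhere, Itgam, C2 and the marker genes were chosen after their values were seen. Some complement genes of the pathway list are not reported here. Count intervals cover counting error only.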

Additional observations from a re-analysis of the deposited data

Results flagged for a closer look

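Among 32 combinations of a member and a group, 4 held a library set apart from its group by Dixon's criterion for 6 samples, where chance gives about 1 in 20. C3 in wild type replicate 6 stood at 70.1 CPM in hematopoietic cells, with the other 5 libraries at 30.0 to 41.8 CPM. In wild type mesenchymal cells C3 in replicate 6 stood at 1.76 CPM, with the others at 0.920 to 1.22 CPM. Cfp in wild type hematopoietic replicate 6 stood at 278 CPM, with the others at 143 to 189 CPM. C1qb in wild type mesenchymal replicate 1 stood at 3.86 CPM, with the others at 1.56 to 2.38 CPM.

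For 2 complement genes outside the members the genotype difference was called as differing between the populations (edgeR, interaction of genotype and population, log2, hematopoietic minus mesenchymal). It was 2.97 for Clu, where hematopoietic libraries held 4 to 12 counts in knock-in and 0 to 11 in wild type. It was -1.32 for Cd93, a call that leaving out single libraries could undo (edgeR, adjusted p up to 0.0675). Neither set of libraries alone called either gene.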

How the results depend on the processing

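The calls of C3 in both populations, C1qb, C1qc and C3ar1 in hematopoietic cells kept their direction under every alternative run, and kept their side of the threshold with DESeq2, upper quartile factors, no filter, no set term and the other population's RNA subtracted (where run). The exceptions follow; a set alone leaves 3 libraries in each group, and otherwise the cause was not tested. With the first set alone, 1 member was called lower and 1 other complement gene higher in hematopoietic cells, and 0 other genes were called lower in mesenchymal cells. With the second set alone 0 members and 0 other genes were called by genotype in either population by edgeR. Over all genes the first and second sets alone called 672 and 218 in hematopoietic cells, against 2231, 391 and 76 in mesenchymal cells, against 1008, and 180 and 138 for the interaction, against 1121. Neither set alone called any other gene for the interaction (0 higher, 0 lower). In the fit of all 24 libraries 0 members and 0 other genes were called lower in hematopoietic cells. No filter called 2 other genes lower there and 0 lower for the interaction, and DESeq2 called 2 lower in mesenchymal cells. For the population comparison in knock-in cells, DESeq2, upper quartile factors and the fit of 12 libraries each called 1 member lower, C4b.

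Same-numbered replicates correlated at 0.067 to 0.685 between genotypes in hematopoietic and -0.009 to 0.518 in mesenchymal cells, over 0.1 in 5 of 6 numbers each, and 3 and 2 of 6 matched their own number best, so the fits took no pairs. With the means of the sets also removed, as in those fits, the hematopoietic range was 0.186 to 0.585, over 0.1 in 6 of 6, so whether the numbers pair those libraries depends on the measure. With a replicate block C1qa was called lower in hematopoietic cells (-0.41, adjusted p = 0.00757), and 6 other genes were called higher and 1 lower there. In the whole table the block called 3315 genes there, against 2231, and 1620 lower, against 967.

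Directions turned for values that were never called: C1qc by genotype in mesenchymal cells (0.0084, second set), and the interaction of C1qb (0.28, first set) and of C5ar1 (0.0031 with no filter, 0.85 in the second set). Leaving out each library gave ranges of -0.70 to 0.045 for C1qa, -0.60 to 0.18 for C1qc and -0.011 to 0.63 for C3ar1 by genotype in mesenchymal cells, and of -0.42 to 0.17 for C1qa, -0.36 to 0.20 for C1qb and -0.34 to 0.45 for C5ar1 in the interaction. It gave 0 to 1 other genes called higher in mesenchymal cells, 1 to 2 called higher and 0 to 1 lower for the interaction, and 0 to 1 members called lower between populations in knock-in cells. Upper quartile factors moved the median over all genes between populations to -0.0922 in knock-in and -0.1125 in wild type, against 0.0659 and 0.0291. In mesenchymal cells DESeq2 called 1664 genes, against 1008, and without knock-in mesenchymal replicate 1 edgeR called 301 higher and 345 lower, against 477 and 531. Depth limits C5ar1 in mesenchymal cells, where it had too few counts to be tested.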
